A study of Mus musculus with 4 samples.

Results

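A group of 10 imprinted growth genes was followed in cultured skin fibroblasts that lacked ADAM9, a membrane-anchored protease of the cell surface, and in wild-type fibroblasts. They were Dlk1, Mest, Plagl1, Peg3, Sgce and Ndn, which are expressed from the paternal allele, and H19, Meg3, Cdkn1c and Grb10, which are expressed from the maternal allele in most tissues. All probe sets were taken that were annotated to exactly 1 of these genes, which were 37 of the 45101 on the array. Of these, 36 named that gene alone, and the 1 probe set for H19 also named Mir675, a microRNA made from the H19 transcript. The genes were put together after Dlk1 and Mest had been seen to be higher in the knockout, so the difference between the genotypes was used to choose them and is given for them as a description, without a test.

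The knockout cells (KO) carried adam9 -/- and the wild-type cells (WT) adam9 +/+, and all came from mouse skin taken on postnatal day 1 and were grown untreated for 48 h. Each genotype had 2 isolations, with 1 array for each isolation, and neither the strain, the sex nor the number of animals behind an isolation was stated. The arrays measure the RNA of both parental alleles together, so no value below says which allele was read. All values are log2 expression values as deposited, and a difference is the KO mean minus the WT mean on that scale. Values of different probe sets are not on a common scale, so the levels of different genes were not compared. Sums over a list, means over a gene's probe sets and the choice of its brightest one do bring them together. In such sums the bright probe sets weigh most.

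In genomic imprinting, an allele is marked in the egg or sperm, mostly by DNA methylation, and in the offspring only the maternal or the paternal copy is then read. Many imprinted genes act on growth before and shortly after birth, and as a rule those read from the father's copy promote growth and those read from the mother's copy restrain it. In the mouse a set of them forms the imprinted gene network, whose members are high in fetal tissues, fall together as growth slows after birth, and respond to the transcription factor encoded by Plagl1. Imprinted genes lie in clusters under a shared control region: Dlk1 with the maternally expressed RNAs Meg3, Rian and Mirg, and H19 with Igf2.

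Adam9 itself stood at 8.33 and 8.55 in the KO arrays, against 11.58 and 11.70 in the WT arrays (limma, log2 difference -3.20, SE 0.147, adjusted p = 0.0242). It is not known here if the probes match the deleted stretch. Xist was high in both KO arrays and low in both WT arrays, and 3 Y-linked genes showed the reverse (4 of 4 called, limma), so genotype and the sex of the cells cannot be told apart in anything below. All 12 listed fibroblast markers were above the filter level, which was the 40th percentile of the probe sets' means, 4.17. The level of a list is given as the log2 of its summed linear values. That of 14 macrophage and leukocyte markers was 9.23 and 8.87 in the KO arrays, against 13.51 and 9.39 in the WT arrays. That of 11 measured proliferation genes was 12.50 and 13.57 in the KO arrays, against 11.41 and 11.20 in the WT arrays. All 11 had both KO arrays above both WT arrays, against 23% of all genes tested. None of the 11 was called, against 0.0678% of all genes tested (limma, smallest adjusted p = 0.0655, for Mki67). In such bulk samples, fewer cells of a type and less RNA per cell cannot be told apart.

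Of the 36 probe sets that named 1 gene, 30 had a mean above the filter level and 6 did not. The 6 dim ones were 2 of 5 for Peg3, 3 of 8 for Ndn and 1 of 2 for Sgce, and lay between 2.07 and 3.66 on all arrays. In the fit, the brightest probe set on average stood for each gene, which left 9 of the 10 genes among 13271 genes tested, since H19 had no probe set of its own. No call is given for these 9, since the contrast chose them. Both KO arrays stood above both WT arrays for Dlk1, Mest and Plagl1, against 23% of all genes tested, and below them for Meg3, Cdkn1c and Grb10, against 22%. The gap was at least 2-fold for Dlk1, Mest and Plagl1, against 2.68% of genes that were so much higher without overlap, and for 0 of the 3 lower ones, against 1.73%. By probe set, 4 of the 30 bright ones stood above without overlap, against 21.8% of all 23595 tested, and 13 stood below, against 22.8%, of which 10 belong to Meg3. The 4 include the dimmer Dlk1 probe set, whose WT mean was below the filter level. Since the choice of genes used this contrast, nothing is read from these counts.

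**Figure D1:**
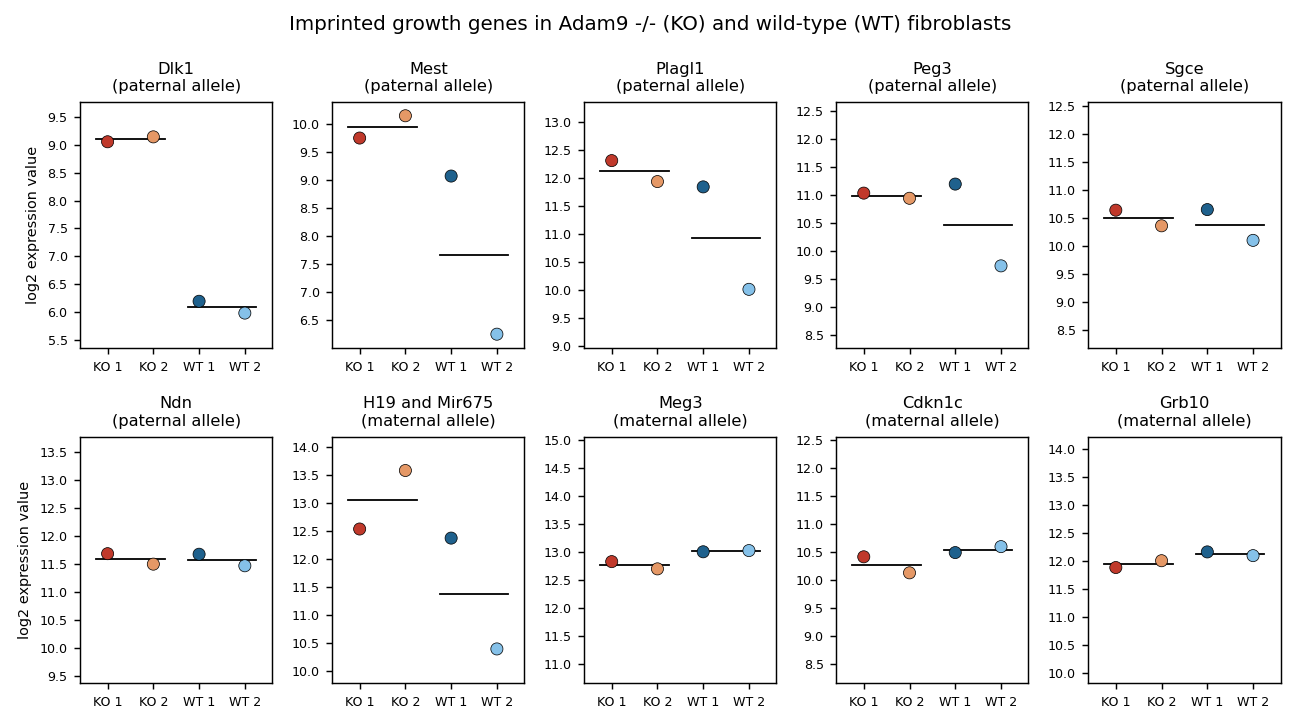
Log2 expression value (vertical axis, a span of equal length in every panel) of each imprinted growth gene in the 4 arrays, KO isolations in red and orange, WT isolations in dark and light blue, with the mean of each genotype as a line. Dlk1 separates the genotypes by 2.999 with little spread, while Mest, Plagl1, Peg3 and the probe set for H19 and Mir675 are at least 1.46 lower in WT isolation 2 than in WT isolation 1.

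Dlk1 showed the widest gap between the genotypes among the 10 genes. It encodes a membrane protein with EGF-like repeats, known as a marker of preadipocytes that restrains fat cell formation, and its outer part can be released by the related protease ADAM17. Its brighter probe set, 1449939_s_at, had values of 9.05 and 9.14 in the KO arrays, against 6.20 and 5.99 in the WT arrays. The means were 9.09 ± 0.062 in the KO and 6.09 ± 0.149 in the WT (SD, n = 2 each), a difference of 2.999, or 7.99-fold. The groups were far apart, and with any 1 array left out the difference stayed between 2.89 and 3.10. The second probe set, 1442724_at, lay close to the filter level and differed by 0.32, with 4.26 and 4.42 in the KO arrays, against 4.20 and 3.85 in the WT arrays. For this probe set the filter level lay between the KO mean of 4.34 and the WT mean of 4.02, so it passed the filter through the KO arrays. The KO arrays were the higher ones there, but the WT isolations were 0.35 apart, and the mean of both probe sets differed by 1.66. Which part of the transcript each probe set reads was not looked up here.

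The promoter of Dlk1 is shown because this gene had the largest difference, with every CpG, the dinucleotide that carries DNA methylation, in capitals. The window runs from 250 bases before to 50 bases after the transcript start (RefSeq, GRCm38.p6).
Dlk1 promoter, chr12:109452573-109452872, plus strand: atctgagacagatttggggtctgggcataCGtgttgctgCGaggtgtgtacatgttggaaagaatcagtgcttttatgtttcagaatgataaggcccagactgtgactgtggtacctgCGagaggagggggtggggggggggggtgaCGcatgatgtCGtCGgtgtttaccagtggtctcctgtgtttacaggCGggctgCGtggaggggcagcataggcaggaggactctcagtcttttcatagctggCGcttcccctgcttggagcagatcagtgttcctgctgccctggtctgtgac
It held 9 CpG, against a median of 7 over all 32851 such windows. Methylation was not measured in these cells.

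Fat cell genes were measured beside Dlk1. Of 8 listed adipocyte markers 7 were measured and 4 were above the filter level. The summed level of the list was 13.12 and 12.20 in the KO arrays, against 11.70 and 10.96 in the WT arrays. Most of this sum came from Lpl, with 13.04 and 12.04 in the KO arrays, against 11.55 and 10.75 in the WT arrays. Both KO arrays were above both WT arrays for 4 of the 7, the dim Adipoq among them. Of the 4 genes above the filter level they were Fabp4, Cebpa and Lpl, against 23% of all genes tested, which all passed that filter. Pparg overlapped, with 6.51 and 4.96 in the KO arrays, against 5.36 and 4.98 in the WT arrays. None of the 4 genes above the filter level passed (limma, adjusted p over 0.05). Adipoq, which marks mature fat cells, lay between 2.90 and 3.06 on all arrays, below the filter level. Whether fat cell precursors played a part in the Dlk1 values was not tested.

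Mest was higher in both KO arrays, but the WT isolations were far apart. It encodes an enzyme of the alpha/beta hydrolase fold that is linked to fat tissue growth in the mouse. Its 1 probe set had values of 9.76 and 10.15 in the KO arrays, against 9.08 and 6.25 in the WT arrays. The KO values were close to each other, and WT isolation 1 was nearer to them than to WT isolation 2. The means were 9.96 ± 0.282 in the KO and 7.66 ± 2.00 in the WT (SD, n = 2 each), a difference of 2.29, or 4.89-fold. Without WT isolation 2 the difference was 0.88, and without WT isolation 1 it was 3.70.

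Plagl1 was also higher in both KO arrays in its representing probe set and lowest in WT isolation 2, in smaller steps than Mest. It encodes a zinc finger transcription factor that halts cell division and, in the mouse, acts on other imprinted genes. Its representing probe set, 1426208_x_at, had values of 12.31 and 11.94 in the KO arrays, against 11.84 and 10.01 in the WT arrays. The groups did not overlap, but KO isolation 2 and WT isolation 1 nearly met. The difference was 1.20, and 0.28 without WT isolation 2. The other 2 probe sets differed by 0.87 and 1.00 and overlapped between the genotypes, with WT isolation 2 lowest in all 3.

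Peg3, which encodes a large zinc finger protein, did not separate the genotypes. Its probe set 1433924_at had values of 11.03 and 10.94 in the KO arrays, against 11.19 and 9.73 in the WT arrays. WT isolation 1 was the highest array and WT isolation 2 the lowest, and the genotypes overlapped in all 3 bright probe sets. Their differences were 0.52 to 0.59 with all arrays and -0.23 to -0.15 without WT isolation 2, so the sign rested on that array.

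The promoters of Mest, Plagl1 and Peg3 are shown because these 3 genes were over 1 log2 unit lower in WT isolation 2 than in WT isolation 1. CpG are in capitals as above, and for Mest, which has 3 listed starts, the window of the second is given.
Mest promoter, chr6:30737800-30738099, plus strand: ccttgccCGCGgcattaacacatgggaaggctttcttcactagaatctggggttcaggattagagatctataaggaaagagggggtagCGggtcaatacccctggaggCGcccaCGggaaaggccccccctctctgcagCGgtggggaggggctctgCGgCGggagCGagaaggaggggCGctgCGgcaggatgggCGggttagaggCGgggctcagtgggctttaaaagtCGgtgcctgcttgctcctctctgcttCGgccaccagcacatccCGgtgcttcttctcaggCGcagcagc
Plagl1 promoter, chr10:13090582-13090881, plus strand: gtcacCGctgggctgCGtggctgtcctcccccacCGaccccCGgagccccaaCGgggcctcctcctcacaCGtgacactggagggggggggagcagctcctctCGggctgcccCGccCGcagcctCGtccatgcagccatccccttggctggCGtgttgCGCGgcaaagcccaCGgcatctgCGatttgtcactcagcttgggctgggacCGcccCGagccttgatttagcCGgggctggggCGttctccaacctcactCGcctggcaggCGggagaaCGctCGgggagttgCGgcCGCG
Peg3 promoter, chr7:6730370-6730669, minus strand: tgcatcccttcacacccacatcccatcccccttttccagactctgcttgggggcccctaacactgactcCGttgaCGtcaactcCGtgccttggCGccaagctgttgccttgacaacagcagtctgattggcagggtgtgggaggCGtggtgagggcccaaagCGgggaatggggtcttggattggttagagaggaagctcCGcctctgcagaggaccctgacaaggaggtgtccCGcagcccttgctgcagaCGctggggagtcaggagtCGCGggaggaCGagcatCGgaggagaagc
They held 17, 26 and 13 CpG, each above the median of 7 over all windows. The window of the first Mest start held 8 CpG and that of the third start 17. The letters GGGGCCCC, a motif that the PLAGL1 protein is known to bind and that reads the same on both strands, were found in the Peg3 window and in no other of the 11 windows of the 7 genes with one, against 1.08% of all windows. Their absence from the other windows says only that these letters are not in them.

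The remaining paternally expressed genes, Ndn and Sgce, overlapped between the genotypes. Ndn encodes necdin, a growth suppressor of the MAGE family, and its 5 bright probe sets differed by 0.02 to 0.12, with the genotypes overlapping in all 5. Its representing probe set, 1435383_x_at, had values of 11.68 and 11.49 in the KO arrays, against 11.67 and 11.46 in the WT arrays. Sgce encodes epsilon-sarcoglycan, a protein of the dystrophin-associated complex. Its bright probe set had values of 10.64 and 10.36 in the KO arrays, against 10.65 and 10.10 in the WT arrays, a difference of 0.12 that was -0.15 without WT isolation 2 and -0.015 without KO isolation 1.

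Among the maternally expressed genes, H19 went the way of the paternally expressed ones. H19 is a long noncoding RNA of fetal tissues that restrains growth in the mouse. The probe set for H19 and Mir675 had values of 12.54 and 13.58 in the KO arrays, against 12.38 and 10.40 in the WT arrays. The genotypes did not overlap, yet KO isolation 1 and WT isolation 1 were close. The difference was 1.68 with all arrays, 0.69 without WT isolation 2 and 1.15 without KO isolation 2.

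Meg3, the long noncoding RNA next to Dlk1, had a lower KO mean in every probe set. All 11 of its probe sets had negative differences, from -1.41 to -0.19 with a median of -0.40, and the genotypes did not overlap in 10 of them. These probe sets read 1 gene in the same arrays and are not replicates of each other. The brightest, 1439380_x_at, had values of 12.83 and 12.70 in the KO arrays, against 13.01 and 13.03 in the WT arrays, a difference of -0.25. The probe set with the largest difference, 1428765_at, had 6.93 and 6.83 in the KO arrays, against 8.14 and 8.45 in the WT arrays. Another, 1428764_at, read 7.49 and 6.90 in the KO arrays, against 7.60 and 7.89 in the WT arrays, so the probe sets did not share a common size of difference. KO isolation 2 was below KO isolation 1 in all 11, by 0.089 to 0.80. Without KO isolation 2 the difference of 1429257_at was -0.03, against -0.43 with all arrays, that of 1452906_at -0.11, against -0.40, and that of 1436713_s_at -0.05, against -0.19. No sign turned without it, nor without WT isolation 2, where the differences were between -1.26 and -0.15.

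The Meg3 promoter is shown beside that of Dlk1 because these neighbours differed in opposite directions (CpG in capitals, RefSeq, GRCm38.p6, the earlier of its 2 listed starts).
Meg3 promoter, chr12:109540746-109541045, plus strand: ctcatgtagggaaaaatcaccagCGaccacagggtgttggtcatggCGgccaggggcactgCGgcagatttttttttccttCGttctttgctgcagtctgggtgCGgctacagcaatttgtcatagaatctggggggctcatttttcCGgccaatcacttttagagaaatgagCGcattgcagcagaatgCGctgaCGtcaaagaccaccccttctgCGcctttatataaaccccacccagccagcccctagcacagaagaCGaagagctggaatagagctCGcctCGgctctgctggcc
It held 13 CpG and the letters TATAAA, searched on both strands, which the Dlk1 window lacked and which 13.6% of all windows hold. The window of the later Meg3 start held 1 CpG and lacked these letters.

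Cdkn1c and Grb10 were slightly lower in the KO. Cdkn1c encodes p57Kip2, an inhibitor of cyclin-dependent kinases, and had values of 10.42 and 10.13 in the KO arrays, against 10.50 and 10.60 in the WT arrays. The groups did not overlap, with a difference of -0.27 that was -0.13 without KO isolation 2. Grb10 encodes an adaptor that dampens signalling from the insulin and IGF1 receptors, and its representing probe set had 11.88 and 12.00 in the KO arrays, against 12.16 and 12.09 in the WT arrays. Its difference was -0.18, and its other 2 probe sets differed by -0.34 and 0.07.

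**Figure D2:**
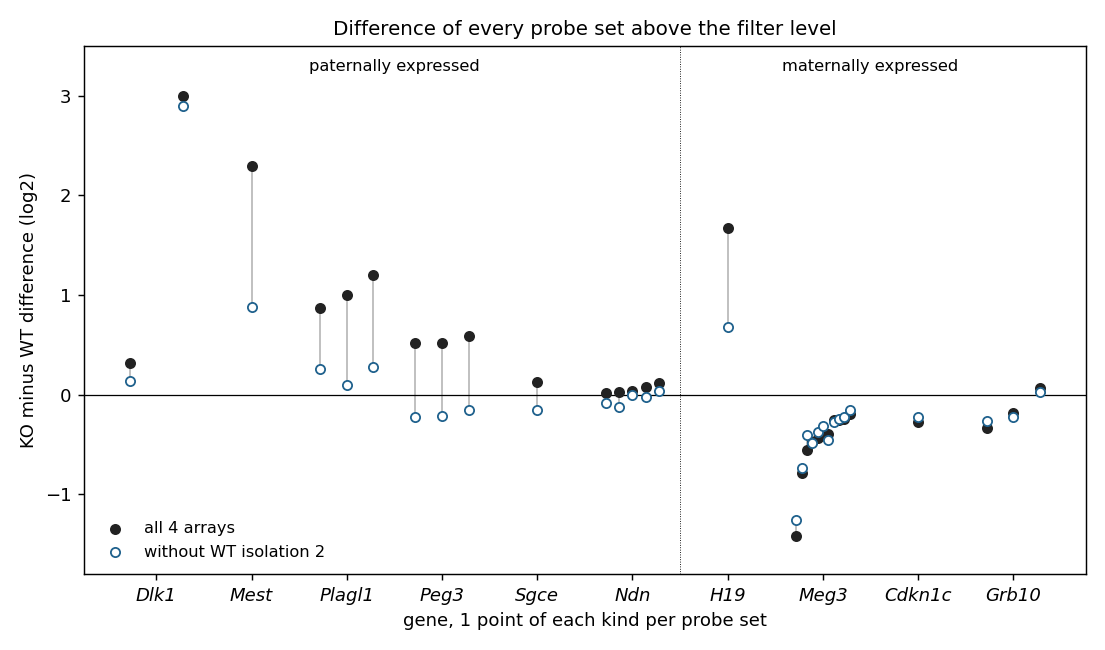
KO minus WT difference in log2 units (vertical axis) of the 31 probe sets above the filter level, the 1 for H19 and Mir675 included, grouped by gene with paternally expressed genes on the left. Filled points use all 4 arrays and open points leave out WT isolation 2, which moves Mest, Plagl1, Peg3 and H19 most. The brighter Dlk1 probe set goes from 2.999 to 2.89 and the dimmer one from 0.32 to 0.14, and no Meg3 probe set changes sign.

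Set side by side by parental allele, the 6 paternally expressed genes all had positive differences, with a median of 0.86, and the 3 maternally expressed genes with a probe set of their own all had negative ones, with a median of -0.25. The median over all genes tested was 0.0027, and 50.5% of them had a positive difference. With H19 counted through its shared probe set, 1 of the 4 maternally expressed genes was on the positive side. Without WT isolation 2, Peg3, Ndn and Sgce were negative, which left 3 of the 6 paternally expressed genes positive. The median of the paternally expressed genes was 0.099 without WT isolation 2 and 1.68 without WT isolation 1. With all arrays it was 0.42 without _x_at and _s_at probe sets, whose probes can match more than 1 transcript, and 0.65 with the mean over each gene's probe sets. Ndn and Sgce differed by 0.12 or less in their representing probe sets.

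The WT isolations differed from each other for many of these genes, and since the contrast that chose the genes holds both WT arrays, this too is a description. WT isolation 2 was the lowest of the 4 arrays for 6 of 6 paternally expressed genes and for 0 of 3 maternally expressed genes tested, against 26% of all genes tested. For Ndn the step was small, 11.46 against 11.49 in KO isolation 2. The probe set for H19 and Mir675, outside the test, was lowest there too. Of the other imprinted genes tested, 3 of 12 paternally and 3 of 12 maternally expressed ones were lowest in WT isolation 2. By probe set WT isolation 2 was the lowest array in 14 of the 30 bright ones, against 24.5% of all tested. It was lower than WT isolation 1 by over 1 log2 unit for 3 of the 9 genes tested, against 2.22% of all genes tested. These were Mest by 2.83, Plagl1 by 1.83 and Peg3 by 1.46, and the probe set for H19 and Mir675 was lower by 1.98. Between the KO isolations 0 of the 9 genes were over 1 log2 unit apart, against 3.96% of all genes tested, and the probe set for H19 and Mir675 was higher in KO isolation 2 by 1.05. Several fibroblast markers were lowest in the same array. Of 12 listed, 9 were lowest in WT isolation 2, and Lum, Pdgfra, Fbln1 and Dcn were lower there than in WT isolation 1 by over 1 log2 unit. The summed level of the list was 16.69 and 16.59 in the KO arrays, against 16.62 and 16.33 in the WT arrays. The list of 8 pericyte and smooth muscle markers had 10.89 and 10.39 in the KO arrays, against 11.30 and 12.20 in the WT arrays. The smooth muscle genes Actg2 and Myh11 were highest in WT isolation 2, at 11.67 and 9.57. Kcnj8 and Abcc9, known from pericytes, were lowest there and differed by 2.09 and 2.51. Kcnj8 had 8.38 and 5.97 in the KO arrays, against 5.86 and 4.30 in the WT arrays. The other 6 listed genes had negative differences, among them Rgs5 at -0.58, Cspg4 at -0.51 and Mcam at -0.91. The summed level of the 14 macrophage and leukocyte markers was high in WT isolation 1, the other WT array. The part of these cell type values in the imprinted genes was not tested.

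**Figure D3:**
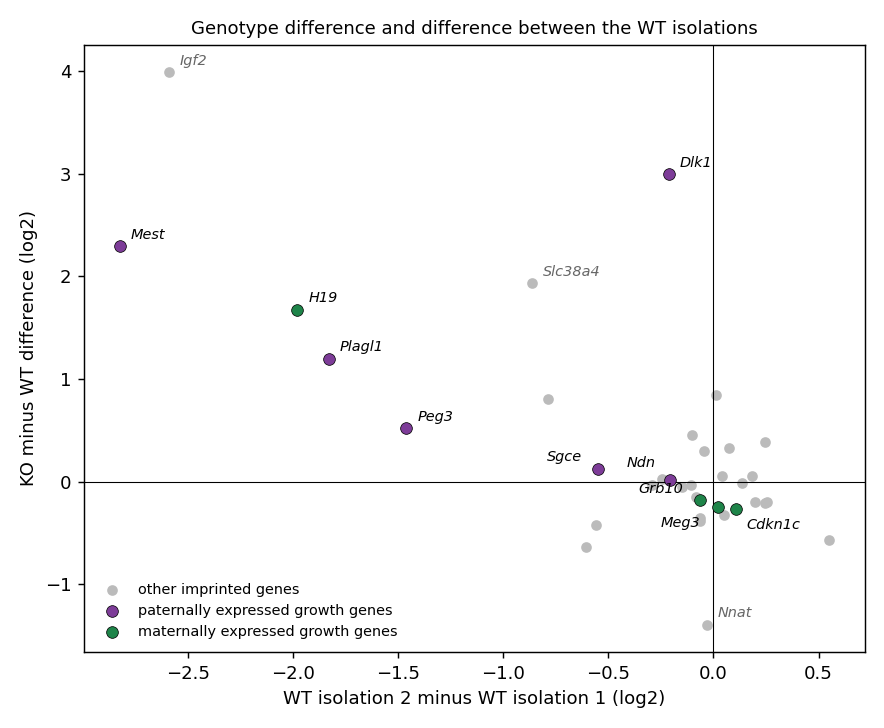
Difference between the WT isolations (isolation 2 minus isolation 1, horizontal axis) against the KO minus WT difference (vertical axis), both in log2 units, 1 point per gene, with paternally expressed growth genes in purple, maternally expressed ones in green and other imprinted genes in grey. Both axes use the WT arrays, so a low WT isolation 2 moves a point to the left and up at once; Dlk1 is high with WT isolations only 0.21 apart, whereas Mest, H19, Plagl1 and Peg3 lie far to the left.

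The other imprinted genes came from a list of 39, of which 34 had a probe set of their own and 26 were tested. None of the 26 passed (limma, smallest adjusted p = 0.200), against 0.0678% of all genes tested, 0.0151% higher and 0.0527% lower in the KO, and 4 had an unadjusted p under 0.05, against 11.4% of all genes tested. Of these 26, 11 had positive and 15 negative differences, with a median of -0.04. The 12 paternally expressed ones were 5 positive and 7 negative with a median of -0.17, and the 12 maternally expressed ones 6 and 6.

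In the cluster of Dlk1, the other noncoding RNAs, Rian and Mirg, had positive differences with all 4 arrays, none of which passed. Rian, which hosts small nucleolar RNAs, had values of 11.80 and 12.37 in the KO arrays, against 11.69 and 11.58 in the WT arrays. Both KO arrays were above both WT arrays, with a log2 difference of 0.45 that did not pass (limma SE 0.229, adjusted p = 0.526), and 0.17 without KO isolation 2. All 4 of its probe sets had positive differences, from 0.12 to 0.55, and 1 of them was negative, at -0.18, without KO isolation 1. Of Mirg, a microRNA host, the representing probe set had 8.70 and 8.38 in the KO arrays, against 8.18 and 8.26 in the WT arrays (limma, difference 0.32, adjusted p = 0.527; 0.16 without KO isolation 1). The other Mirg probe set overlapped between the genotypes, with a difference of 0.12 that was -0.13 without KO isolation 1.

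Igf2, the fetal growth factor that shares its control region with H19, had the largest difference of the list. Its bright probe set had values of 11.63 and 12.61 in the KO arrays, against 9.43 and 6.83 in the WT arrays. The order of the arrays was that of H19, with KO isolation 2 highest and WT isolation 2 lowest, and the difference of 3.99 did not pass (limma SE 0.944, adjusted p = 0.312). It was 2.69 without WT isolation 2. The second Igf2 probe set was below the filter level on average, with 4.97 and 5.17 in the KO arrays, against 3.31 and 3.11 in the WT arrays, and there the isolations of each genotype lay close together. Slc38a4, an amino acid transporter gene that is also paternally expressed and had the second largest difference, had 8.20 and 8.26 in the KO arrays, against 6.73 and 5.86 in the WT arrays. Both of its probe sets were higher in both KO arrays, by 1.94 and 2.76, and the first, which represented the gene, did not pass (limma adjusted p = 0.200). Igf2r, the maternally expressed receptor that clears IGF2, had 10.96 and 10.70 in the KO arrays, against 11.77 and 11.16 in the WT arrays (limma, difference -0.64, adjusted p = 0.455; -0.33 without WT isolation 1).

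**Figure D4:**
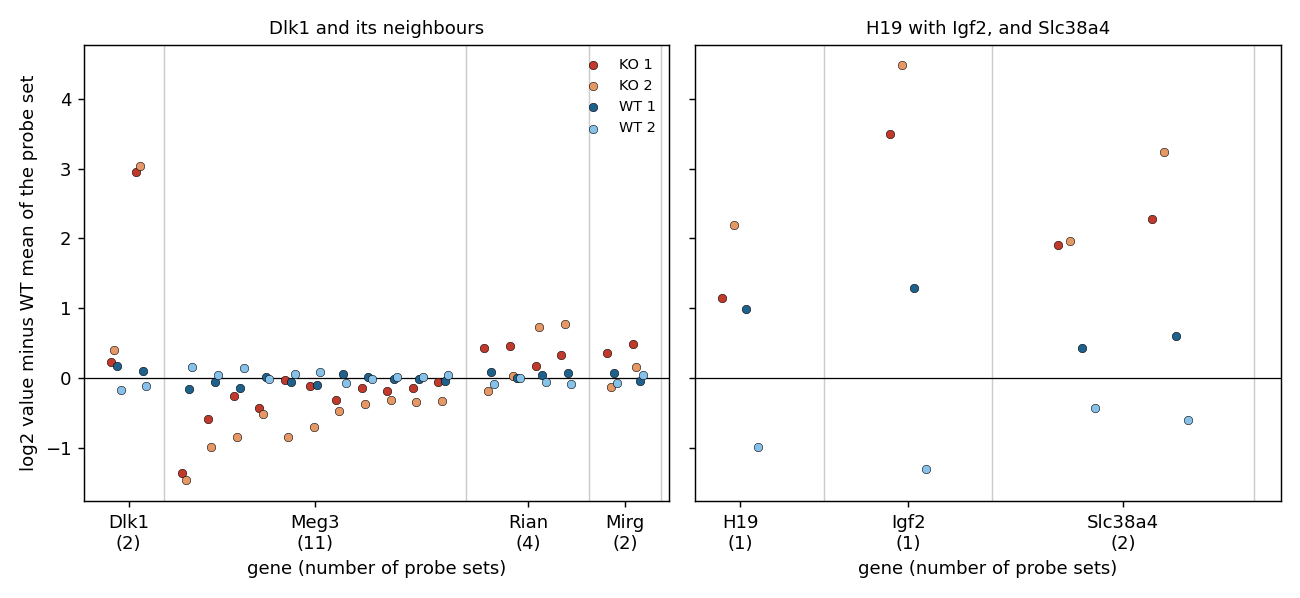
Log2 value of each probe set above the filter level minus its WT mean (vertical axis), by gene and array, KO isolations in red and orange and WT isolations in dark and light blue. On the left both Dlk1 probe sets are higher in the KO, by 2.999 and, in the dimmer one near the filter level, by 0.32. The 11 Meg3 probe sets lie below 0 in the KO and those of Rian and Mirg mostly above. On the right H19 (with Mir675), Igf2 and Slc38a4 are highest in KO isolation 2 and lowest in WT isolation 2.

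Neighbours of the other growth genes did not pass either. Beside Mest, the coat protein gene Copg2 differed by -0.32 (limma adjusted p = 0.605; -0.06 without KO isolation 2) and Klf14 by 0.03. Beside Ndn, the splicing factor gene Snrpn differed by -0.21 (-0.08 without WT isolation 2), the ubiquitin ligase gene Ube3a by -0.06 and Peg12 by 0.84 (limma adjusted p = 0.491; 0.31 without KO isolation 2). Peg12 had 4.26 and 5.32 in the KO arrays, against 3.94 and 3.95 in the WT arrays, so its KO isolations differed more than the genotypes did. Its WT values were below the filter level of 4.17, so it passed the filter through the KO arrays. Beside Sgce, Asb4 differed by -0.57 (limma adjusted p = 0.450; -0.30 without WT isolation 2) and Ppp1r9a by -0.04. Asb4 had 3.99 and 4.06 in the KO arrays, below the filter level, against 4.32 and 4.87 in the WT arrays. Beside Cdkn1c, the transporter gene Slc22a18 differed by -0.36 (limma adjusted p = 0.436), with 7.37 and 7.21 in the KO arrays, against 7.68 and 7.62 in the WT arrays. In that cluster Kcnq1 differed by 0.05 (0.02 without KO isolation 2), its antisense RNA Kcnq1ot1 by -0.20 (-0.10 without WT isolation 2) and Ascl2 by 0.06. Beside Grb10, Ddc differed by -0.02.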

How the data were processed

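Total RNA of 4 cultures was measured on 4 Affymetrix arrays of 45101 probe sets, 64 of them controls. For each array the authors deposited a log-scale (log2) value per probe set, made with Affymetrix Expression Console per the submitters' processing notes. The sources used here name no version, summary method or log base. Base 2 was assumed from the range (1.70 to 14.4), and array medians of 4.84 to 4.88 were near equal. If the base was not 2, folds would change and the order of values would not. Precision is limited by having 4 arrays.

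Probe sets were named from the platform annotation, with symbols updated by Entrez identifier through RefSeq (GRCm38.p6). Of 34945 non-control probe sets naming 1 gene, each of 18193 genes was represented by the one with the highest mean, and 13271 genes above the 40th percentile were tested. KO was tested against WT without a block in R 4.3.3 with limma 3.58.1 (eBayes), with Benjamini-Hochberg adjustment over all genes tested and a threshold of 0.05. Each p-value sets the genotype difference against the spread between isolations, with that spread drawn toward a common value over all genes. The procedure was also run on simulated arrays with independent errors drawn from the model's own fit. Those held no sex difference, cell mixture or outlying array, so that run says nothing about such effects in these data. The growth genes, the other lists and the tests were chosen with earlier results of these data known. Named beside the growth genes are neighbours in their clusters, genes that pass, and the 2 largest differences for each parental allele. Parental alleles and cluster membership are textbook knowledge, not measurements. Promoter windows came from RefSeq for 7 of the 10 genes. Alternatives tried were a block on isolation number, other filters and normalizations, other choices of probe set, array weights, an intensity trend, and leaving out each array.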

Additional observations from a re-analysis of the deposited data

How the results depend on the processing

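The limma test called 9 genes and 10 probe sets. With the isolation number as a replicate block it called 2 genes and 0 probe sets, with 1566 genes at an unadjusted p under 0.05. The isolation numbers were not shown to pair the arrays: the labels name nothing shared, and the isolation differences of the genotypes correlated with r of 0.12 over 13271 genes. Dlk1 differed by 1.66 with the mean over probe sets and by 0.32 without _x_at and _s_at probe sets. With the stricter filter 6 probe sets were called. With any 1 array left out 0 genes and 0 probe sets were called, while 714 to 2281 genes had an unadjusted p under 0.05. Of the other imprinted genes 0 were called in any setting. The median difference of the paternally expressed genes was 0.099 to 1.68 with 1 array left out, and that of the maternally expressed genes was -0.32 to -0.19. With 1 array left out, Peg3 ran from -0.21 to 1.25, Sgce from -0.15 to 0.40 and Ndn from -0.08 to 0.12. All 9 growth genes kept their sign in the settings that used all 4 arrays. Other genes changed sign too: Ddc was 0.0021 with median centring, 0.0014 with cyclic loess and 0.13 with the mean over probe sets. With 1 array left out, Ddc ran from -0.19 to 0.16, Ascl2 from -0.033 to 0.15, Klf14 from -0.095 to 0.15, Ppp1r9a from -0.18 to 0.11 and Ube3a from -0.34 to 0.22. The cause was not tested.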

Other observations

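Some imprinted genes from other clusters are given here as well, none of which passed, and they were chosen after their values were seen. Nnat, the paternally expressed neuronatin gene, had values of 4.86 and 4.08 in the KO arrays, against 5.89 and 5.85 in the WT arrays, a difference of -1.39 (limma adjusted p = 0.279). The WT isolations were nearly equal, and both KO arrays were lower. Nap1l5, another paternally expressed gene, had 7.88 and 6.23 in the KO arrays, against 6.65 and 5.86 in the WT arrays, so its KO isolations were farther apart than the genotypes (difference 0.80, limma adjusted p = 0.661; -0.02 without KO isolation 1). Airn, the paternally expressed antisense RNA of Igf2r, had differences of -0.16, -0.42 and -0.46 in its 3 bright probe sets, which were -0.04, -0.14 and -0.18 without WT isolation 1. The representing one, at -0.42, overlapped between the genotypes (limma adjusted p = 0.601). Commd1, a maternally expressed gene in the mouse, was higher in both KO arrays in both of its probe sets, by 0.23 and 0.30 (limma adjusted p = 0.481 for its representing one, at 0.30).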
